A study of Mus musculus with 32 samples.

Results

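Steroid dehydrogenases and reductases of mouse liver were followed after lipopolysaccharide (LPS, a bacterial cell wall component that triggers acute inflammation) in wild-type mice and in mice without E2F1, a transcription factor of the cell cycle. The 8 genes were Hsd3b2, Hsd3b3, Hsd3b4, Hsd3b5, Srd5a1, Akr1c6, Akr1c20 and Hsd11b1, taken by the gene name that the scanner files give each probe. They were chosen by their log2 levels over the 6 groups, because the Hsd3b genes were far lower at 20 h of LPS than on saline, so the difference between 20 h and saline is given here as a description and was not tested for them. The array held 15 probes for these 8 genes among 41174 probes, and 14 of the 15 passed the filter on dim probes together with 28407 probes and 19248 gene names in all. The probe that did not pass was the second one of Hsd3b4, and each gene had at least 1 probe that did.

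The study hybridised RNA from 32 samples to 1-colour Agilent arrays, 1 array per sample. Wild-type animals carried the label E2F1+/+ with the strain B6x126 F2, and knockout animals the label E2F1-/- with the strain B6;129E2F1-/-, so genotype and strain label changed together and cannot be told apart. Each genotype gave 6 saline samples, which the labels place at 20 h, 4 samples at 6 h of LPS and 6 samples at 20 h of LPS. The dose, sex, age and the deleted part of E2f1 are not given in the sources used here, and there was no saline sample at 6 h. Nothing in the labels says that the samples of a group came from separate animals, so p-values measure the spread between these samples.

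The source label names liver, whereas the extraction protocol speaks of lung. Alb, which encodes the albumin that hepatocytes secrete, lay between 9.19 and 11.22 on the log2 scale above the 75th percentile of every array. Among 6 lung epithelium markers 3 had a probe that passed the filter, and Sftpc, Sftpb and Cldn18 did not. The summed level of the 3 that passed ran from -3.86 to -1.83 in wild-type saline samples and from -0.99 to 1.29 in wild-type samples at 20 h of LPS. The probe named E2f1 was dim in every group, with a mean of -3.36 ± 1.01 (SD, n = 6) in wild-type saline samples and -3.23 ± 0.81 (SD, n = 6) in knockout saline samples. It may lie outside the deleted part and therefore does not check the genotype labels.

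A pair of libraries went against the rest of their groups. Over 7666 probes that changed at 6 h in wild type, each array was scored so that wild-type saline averaged 0 and wild-type LPS 6 h averaged 1. The library labelled knockout saline replicate 1 scored 0.865, while the other knockout saline libraries scored at most 0.0607. The library labelled knockout LPS 6 h replicate 1 scored 0.122, while the other 3 scored from 0.89 to 0.967. Values without these 2 libraries are given beside many of the results that they move, though not all. Another library, knockout LPS 20 h replicate 4, scored 0.338 on the matching score for 20 h over 10112 probes, against 0.956 to 1.05 in the other 5.

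Steroid hormones are made in the adrenal gland and gonads and are largely inactivated or reshaped in the liver. The 3beta-hydroxysteroid dehydrogenases oxidise a hydroxyl group of the steroid nucleus and move a double bond, but some mouse isoforms of liver, Hsd3b4 and Hsd3b5 among them, work as 3-ketosteroid reductases and inactivate androgens. Srd5a1 is a steroid 5-alpha-reductase that reduces testosterone and other ketosteroids, the aldo-keto reductases of the Akr1c family reduce keto groups on steroids, and Hsd11b1 regenerates active glucocorticoid from its inactive keto form. Several of these genes are known in mice for levels that differ between male and female liver under growth hormone.

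The Hsd3b and Akr1c families hold close relatives, so the probe sequences are shown first. Positions are those of the scanner files on mm9, and exon, intron and untranslated region were not annotated here for that build. The probes below are the brightest for each gene, all 60 bases long, written 5′ to 3′. The capitals mark the longest run that the Akr1c6 and Akr1c20 probes share.
Hsd3b5 (chr3:98422848-98422907, minus strand): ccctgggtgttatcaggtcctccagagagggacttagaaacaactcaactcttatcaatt
Hsd3b4 (chr3:98303072-98303131, minus strand): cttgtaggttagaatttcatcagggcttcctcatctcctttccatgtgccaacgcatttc
Hsd3b2 (chr3:98515099-98515158, minus strand): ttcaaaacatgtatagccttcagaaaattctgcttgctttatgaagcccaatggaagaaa
Hsd3b3 (chr3:98546284-98546343, minus strand): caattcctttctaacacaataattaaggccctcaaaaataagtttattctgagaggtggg
Akr1c6 (chr13:4456428-4456487, plus strand): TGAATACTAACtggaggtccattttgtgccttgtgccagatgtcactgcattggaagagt
Akr1c20 (chr13:4486408-4486467, minus strand): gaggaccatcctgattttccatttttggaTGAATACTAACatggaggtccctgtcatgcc

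The 4 Hsd3b probes shared no run longer than 7 bases with each other, the longest being between Hsd3b3 and Hsd3b4. The Akr1c6 and Akr1c20 probes shared a run of 11 bases. Probes were compared only with each other, so binding to the transcript of a relative was not tested. All 8 symbols are in RefSeq's gene table for GRCm38.p6, and 9 of the 15 probes carry an accession that the table assigns to the same gene. Neither accession of the Akr1c20 probes is among those in the table, so that name rests on the scanner files.

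The Hsd3b genes were furthest below saline among the 8 at 20 h of LPS. Levels below are the log2 processed signal of a probe minus the 75th percentile of its array, so that 0 is that percentile, and levels of different probes are not set against each other. Hsd3b5 lay between 5.2 and 6.33 in the 6 wild-type saline samples, with a median of 5.75. At 20 h its wild-type levels were -3.1, -4.49, -3.96, -0.37, -3.42 and -3.46 for replicates 1 to 6. Every wild-type sample at 20 h was below every saline sample, and replicate 4 was the highest. The mean difference was -8.89 ± 0.96 (SE), 475-fold lower, which placed this probe second from the bottom among the 28407.

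In the knockout, Hsd3b5 lay between 2.51 and 6.17 in saline samples, with a median of 5.68, and replicate 1 held the lowest value. At 20 h the knockout levels were -4.79, -2.65, -4.07, 3.86, -3.96 and 0.04. Replicate 4 overlapped saline through knockout saline replicate 1 alone, the other 5 saline values being 5.33 to 6.17, and replicate 6 lay between the saline samples and the other 4. The mean difference was -7.17 ± 0.96 (SE), 144-fold lower, the lowest of all probes in the knockout.

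Hsd3b4, like Hsd3b5 a reductive isoform in mice, had a range of 4.39 to 6.48 in wild-type saline samples, with a median of 5.83. Its wild-type range at 20 h was -2.19 to -0.25, with a median of -1.89, and no sample overlapped saline. In knockout samples it went from 2.81 to 6.37 on saline, median 5.35, to -3.05 to 3.72 at 20 h, median -1.64, and replicate 4 was again the sample that overlapped, only with saline replicate 1, since the other saline values start at 4.48. The mean differences were -7.30 in wild type, 158-fold, and -5.91 in the knockout, 60.1-fold.

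Hsd3b2, a dehydrogenase and isomerase of the family, lay between 3.96 and 5.26 in wild-type saline samples, median 4.13. At 20 h it lay between -4.02 and -0.64, median -3.24, in wild type. Its knockout range was 3.08 to 5.17 on saline, median 4.46, and -3.91 to 3.68 at 20 h, median -2.87. Wild-type groups did not overlap, and knockout groups overlapped through replicate 4, also without saline replicate 1, where the lowest saline value is 3.57. The mean differences were -7.24 in wild type, 151-fold, and -5.88 in the knockout, 59.1-fold. A second Hsd3b2 probe gave -6.85 and -5.97 and was not well above background on any wild-type array at 20 h, so its signal was at least 52.8-fold lower there than on saline. "At least" marks a bound, in which the dim group is set on each array at the lowest signal measured well above background or at its own, whichever is higher. The remaining, dim probe was at least 2.72-fold lower.

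Hsd3b3, another isoform of the cluster, had the dimmest representative probe of the 4, well above background on 3 of 6 wild-type and 2 of 6 knockout arrays at 20 h. On saline it lay between 0.42 and 2.56 in wild type, median 1.77, and between -1.12 and 1.27 in the knockout, median 0.56. At 20 h the ranges were -6.89 to -3.95, median -4.76, and -6.47 to -0.4, median -5.72. Wild-type groups did not overlap, and the highest knockout sample reached above saline replicate 1 alone, the other saline values being 0.36 to 1.27. The mean differences were -6.80 in wild type and -4.94 in the knockout.

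Srd5a1, the 5-alpha-reductase, lay between 4.36 and 5.4 in wild-type saline samples, median 4.9, and between 4.45 and 5.28 in knockout saline samples, median 5.01. At 20 h it lay between -1.64 and 1.0 in wild type, median -0.94. The 6 knockout levels at 20 h were -1.43, -0.17, -1.38, 2.87, -0.95 and 2.67. Neither genotype overlapped its saline samples, and knockout replicates 4 and 6 stood above the other 4. The mean differences were -5.59 ± 0.58 (SE), 48.2-fold, and -4.70, 26-fold.

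Akr1c6, the mouse 17beta-hydroxysteroid dehydrogenase of the aldo-keto reductase family, was very bright on saline, between 8.23 and 9.25 in wild type and between 8.25 and 9.04 in the knockout. The wild-type levels at 20 h were 3.42, 2.86, 4.84, 6.04, 4.41 and 4.07. The knockout levels at 20 h were 2.16, 2.24, 1.97, 8.06, 4.42 and 6.78. The groups did not overlap in either genotype, but the knockout samples were split. In the knockout 3 were close to 2, replicate 4 was near saline, and replicate 6 lay between saline and the rest. The mean differences were -4.49 ± 0.70 (SE) and -4.39, 22.5-fold and 21-fold.

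Akr1c20, an aldo-keto reductase gene beside Akr1c6, moved with it array by array. It lay between 6.67 and 7.54 in wild-type saline samples and between 1.57 and 4.44 at 20 h. The knockout levels at 20 h were 0.66, 0.99, 0.44, 6.2, 2.85 and 5.45, against 6.32 to 7.46 on saline. Neither genotype overlapped saline. The root-mean-square difference between the Akr1c6 and Akr1c20 profiles, each centred on its wild-type saline mean, was 0.264 on the log2 scale over 32 arrays. The dimmer Akr1c20 probe changed by -3.05 and -3.08, against -4.11 and -4.15 for the bright probe.

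Hsd11b1, which activates glucocorticoid, had the least difference and the least spread. It lay between 6.75 and 7.08 in wild-type saline samples and between 5.21 and 6.6 at 20 h. In the knockout it lay between 6.83 and 7.05 on saline and between 5.26 and 6.77 at 20 h. Groups did not overlap in either genotype. The mean differences were -1.17 ± 0.21 (SE) and -0.88, that is 2.26-fold and 1.84-fold.

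**Figure D1:**
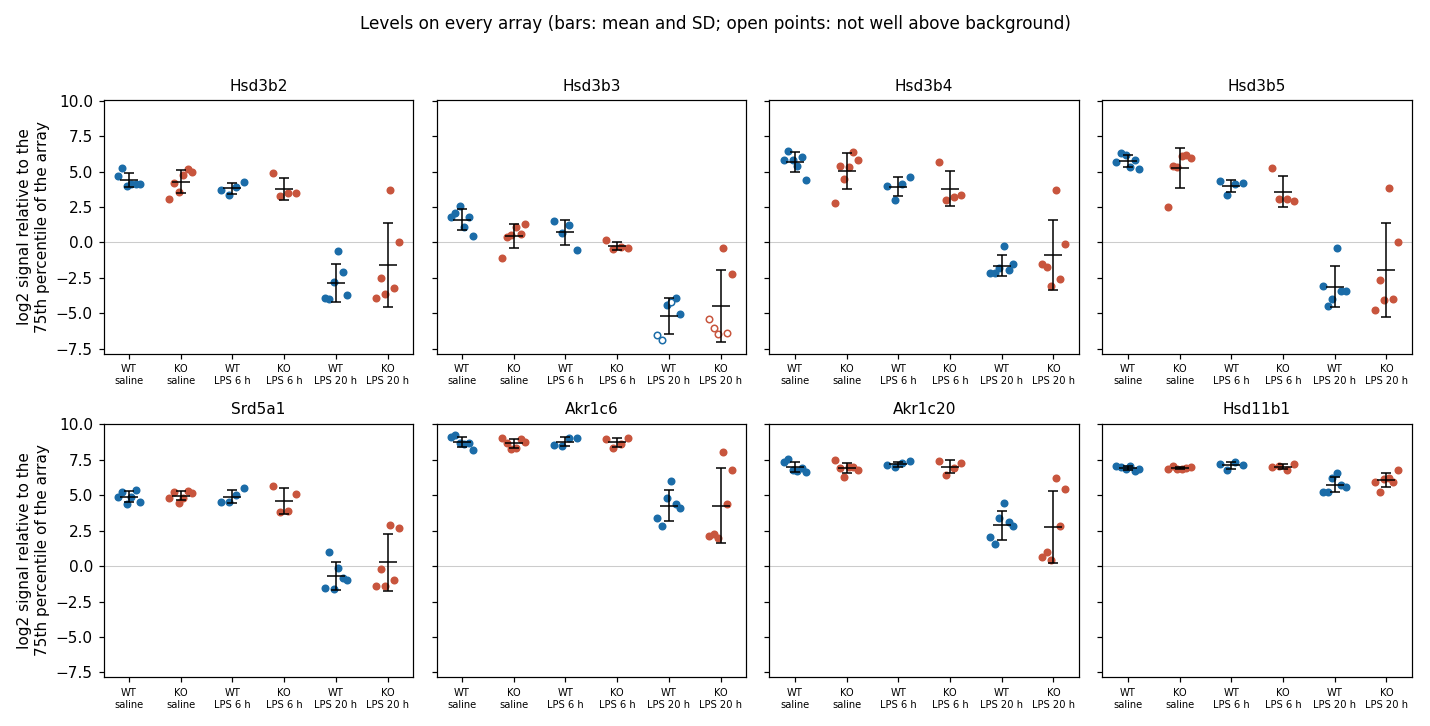
Log2 level relative to the 75th percentile of each array (vertical axis) for the brightest probe of each of the 8 genes in the 6 groups (horizontal axis), 1 point per array, open where not well above background, with the mean and SD of each group. At 20 h of LPS all 8 genes lie below every saline array in wild type, while knockout replicates 4 and 6 lie above the other knockout arrays of that time.

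In wild type all 8 genes lay at 20 h below every saline array, where 12.2% of all probes did. In the knockout 4 of 8 did, Srd5a1, Akr1c6, Akr1c20 and Hsd11b1, where 2.25% of all probes did. Without knockout saline replicate 1, 7 of 8 did, all but Hsd3b2, where 6.77% of all probes did. These counts come from the contrast that picked the genes. In bulk liver RNA, fewer cells of a type and less RNA per cell cannot be told apart. The summed level of 9 hepatocyte markers lay between 11.42 and 11.87 in wild-type saline samples and between 11.09 and 11.87 at 20 h. This sum is carried by the brightest markers, such as Alb, and gene by gene 5 of the 9 fell and 2 rose. The summed level of 8 neutrophil markers lay between 1.2 and 3.24 on saline and between 5.73 and 7.05 at 20 h. The part of cell composition in the differences was not tested.

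The arrays were scanned on 3 dates that each held several groups. Within the first, the Hsd3b5 difference at 20 h was -9.19 in wild type and -10.08 in the knockout, and within the second -7.68 and -5.84. Within the third, which held no wild-type saline array, the knockout difference was -5.61. For Akr1c6 the knockout differences within the 3 dates were -6.44, -2.58 and -4.16. Without the 2 libraries that went against their groups, the knockout differences ran from -7.72 for Hsd3b5 to -0.89 for Hsd11b1.

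At 6 h of LPS none of the 8 genes passed the test, and Hsd3b5 and Hsd3b4 had the largest differences from saline. Hsd3b5 levels at 6 h were 4.35, 3.38, 4.12 and 4.16 in wild type, all below the saline range. Knockout levels were 5.27, 3.08, 3.07 and 2.94, of which the first belongs to the library that resembled saline. The change was -1.76 ± 1.07 (SE) in wild type, with a 95% interval from -3.95 to 0.43 and an adjusted p of 0.234 by limma. In the knockout it was -1.66 ± 1.07 (SE), with an adjusted p of 0.394 by limma. Both SE pool the spread of all 6 groups. The SD of Hsd3b5 was 0.44 in wild-type saline samples and 0.43 in wild type at 6 h, but 3.31 in the knockout at 20 h. With the spread of the compared groups alone, the wild-type adjusted p was 0.000585 by limma.

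Hsd3b4 levels at 6 h were 3.99, 3.0, 4.11 and 4.61 in wild type and 5.66, 3.01, 3.21 and 3.32 in the knockout. Both ranges overlapped saline. The change was -1.73 ± 0.85 (SE) in wild type, with an adjusted p of 0.132 by limma, and -1.23 ± 0.85 (SE) in the knockout, with an adjusted p of 0.428. Hsd3b2 differed from saline by -0.56 and -0.50 and Hsd3b3 by -0.91 and -0.71. Without the 2 libraries the knockout values were -1.12 for Hsd3b2 and -1.17 for Hsd3b3. In the same fit, the knockout changes of Hsd3b4 and Hsd3b5 were -2.30 ± 0.88 (SE) and -2.76 ± 1.15 (SE), with adjusted p of 0.0502 and 0.0736 by limma.

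None of the reductases nor Hsd11b1 passed at 6 h, and the sign of their median difference depended on the scaling. The median over these 4 was 0.10 in wild type and 0.08 in the knockout, but -0.17 and -0.22 with quantile normalization, -0.32 and -0.29 after normexp, and -0.27 and -0.34 in the deposited table. Srd5a1 differed from saline by 0.01 in wild type and -0.35 in the knockout, -0.74 without the 2 libraries, Akr1c6 by 0.02 and 0.07, Akr1c20 by 0.18 and 0.11, and Hsd11b1 by 0.19 and 0.09. Akr1c6 levels at 6 h were 8.54, 8.48, 9.01 and 9.07 in wild type, all inside the saline range. Hsd11b1 levels at 6 h were 7.22, 6.79, 7.34 and 7.12 in wild type, of which 3 lay above every saline sample.

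**Figure D2:**
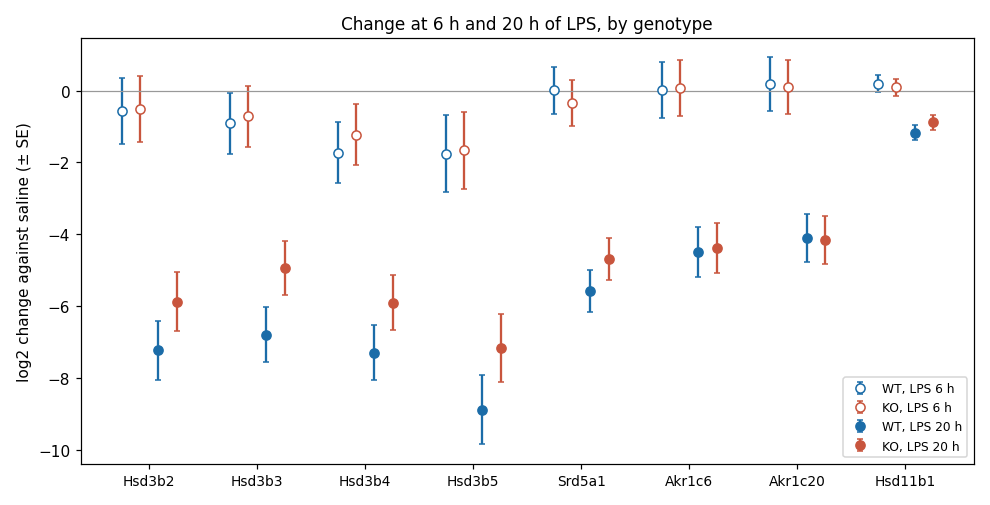
Log2 difference from saline (vertical axis) at 6 h and 20 h of LPS for the 8 genes in both genotypes, with standard errors. The Hsd3b genes lie lowest at both times, and Srd5a1, Akr1c6, Akr1c20 and Hsd11b1 are within 0.35 of saline at 6 h.

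Of the 8 genes, 0 passed an adjusted p of 0.05 at 6 h in wild type by limma, where 27.4% of all probes did, and 1 had an unadjusted p under 0.05, Hsd3b4. In the knockout 0 passed, where 2.22% of probes did, and 0 had an unadjusted p under 0.05. Without the 2 libraries 0 of 8 passed in the knockout, where 28.7% of probes did. Both 6 h comparisons share the saline arrays with the contrast that picked the genes. In wild type 1 of 8, Hsd3b5, lay below every saline array at 6 h, where 14.8% of probes did, and in the knockout 0 did, where 0.513% did. Without the 2 libraries, 4 of 8 did in the knockout, Hsd3b2, Hsd3b3, Hsd3b4 and Hsd3b5, where 20.6% of probes did. The median difference over the 8 genes was -0.28 in wild type and -0.43 in the knockout, beside 0.02 and -0.03 over all probes. Within the first scan date, which held a single 6 h array of each genotype, the Hsd3b5 change was -1.45 in wild type and -2.56 in the knockout. Within the second date, with a single wild-type array at 6 h, the values were -1.78 and -2.78. Within the third date, where the 6 h array and 1 of 2 saline arrays of the knockout were the libraries that went against their groups, the value was 0.97. The wild-type count was 2, Hsd3b4 and Hsd3b5, when the spread came from the compared groups alone (adjusted p = 0.00743 and 0.000585 by limma).

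Whether loss of E2F1 altered these enzymes was the question of the genotype comparisons, and 0 of 8 genes passed in any of them by limma. The share of all probes that passed was 0.338% on saline, 1.07% at 6 h and 0.299% at 20 h. None of the 8 had an unadjusted p under 0.05 in these 3 comparisons. The groups of both genotypes overlapped for all 8 genes at each time. Every knockout array lay below every wild-type array for 0.679% of all probes on saline, 3.13% at 6 h and 0.313% at 20 h, and above for 0.527%, 3.82% and 0.214%. At 6 h Hsd3b5 overlapped only through knockout replicate 1: without the 2 libraries its knockout values, 2.94 to 3.08, lay below every wild-type value, where 7.87% of probes did.

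On saline Hsd3b3 had the largest difference between genotypes, -1.17 in the knockout relative to wild type, with a 95% interval from -2.71 to 0.38. Without the 2 libraries that difference was -0.85. Hsd3b5 knockout levels at 20 h were higher by 1.21 ± 0.96 (SE), with an interval from -0.75 to 3.16 and an adjusted p of 0.901 by limma. The difference at 20 h was 1.26 for Hsd3b2, interval -0.43 to 2.94, and 0.97 for Srd5a1, interval -0.23 to 2.16. These intervals reach past 1 on the log2 scale, so differences of that size are not excluded here. Their width comes from the spread pooled over all 6 groups, which was unequal between groups. For Hsd3b3 the SD was 0.75 in wild type and 0.85 in the knockout on saline, but 1.25 and 2.56 at 20 h. The pooled spread thus makes its saline interval wider than the compared groups alone would. It makes the intervals given at 20 h narrower than those groups alone would. Hsd11b1 was measured more tightly, with a difference of 0.29 and an interval from -0.15 to 0.72. Akr1c6 differed by 0.00 on average, with an interval from -1.44 to 1.44. Within the first scan date the sign of the difference at 20 h turned for Hsd3b2 (-0.92), Hsd3b3 (-1.44), Hsd3b4 (-0.54), Hsd3b5 (-0.82) and Srd5a1 (-0.23).

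The test of the difference between the genotypes' responses called 0 of 8 genes at 6 h, where 0.113% of probes passed, and 0 of 8 at 20 h, where 0.0211% did, with no unadjusted p under 0.05. At 6 h the value for Hsd3b4 was 0.50, or -0.57 without the 2 libraries, and those for Hsd3b2, Hsd3b3 and Hsd3b5 likewise turned negative. At 20 h the value for Hsd3b5 was 1.72, interval -1.05 to 4.49, or 1.17 without the 2 libraries. That for Hsd3b3 was fitted at 1.87, interval -0.32 to 4.05, or 1.55 without the 2 libraries. Its probe was well above background on only 3 of 6 wild-type and 2 of 6 knockout arrays at 20 h. The lowest adjusted p among the 8 at 20 h was 0.854 by limma.

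The knockout samples at 20 h were spread more widely than those of wild type for every gene of the 8 but Hsd11b1. Akr1c6 had an SD of 2.63 in the knockout (n = 6) and 1.12 in wild type (n = 6). Replicates 4 and 6, which lay above the other knockout samples at 20 h for Akr1c6, Akr1c20, Srd5a1 and all 4 Hsd3b genes, were scanned on different dates. Within the first scan date, which held knockout replicates 1 and 3, Akr1c6 in the knockout differed from wild type by -2.38 ± 0.30 on the log2 scale (SE, adjusted p = 0.0353 by limma) and Akr1c20 by -2.57 ± 0.26 (adjusted p = 0.0161 by limma). Within the second date, which held replicates 4 and 5, the differences were 1.51 and 1.29, and within the third, with replicates 2 and 6, 1.65 and 1.65, none of which passed. Replicate 6 scored 1.01 over the probes changed at 20 h and 0.823 over those changed at 6 h, against 0.496 to 0.603 on the latter in replicates 1, 2, 3 and 5. Summed hepatocyte markers were 11.65 in replicate 4 and 12.49 in replicate 6, against 11.41 to 11.83 in the others. The part of the libraries' state in these differences was not tested.

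Further Srd5a1 probes had a course unlike that of the main one, although the testis clone's probe was also lower at 20 h. They target cDNA clones that the array names Srd5a1, one from embryonic stem cells and one from testis. Neither clone's accession is in the RefSeq table, and both positions lie upstream of the main probe on the minus strand of chromosome 13, in mm9. The 3 probes are shown for their separate positions.
Srd5a1, main probe (chr13:69712376-69712435): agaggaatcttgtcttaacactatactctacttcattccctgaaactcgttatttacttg
Srd5a1, stem cell clone (chr13:69733518-69733577): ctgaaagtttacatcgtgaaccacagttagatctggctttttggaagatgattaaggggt
Srd5a1, testis clone (chr13:69749409-69749468): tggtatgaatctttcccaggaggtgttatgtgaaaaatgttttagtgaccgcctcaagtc

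The stem cell clone's probe lay between -6.25 and -4.03 in wild-type saline samples, well above background on 3 of 6. In knockout saline samples it was -4.32, -0.27, -0.89, -1.25, -0.72 and -0.95. The 5 samples apart from replicate 1, the library that went against its group, were above every wild-type sample. The genotype difference on saline was 3.69 ± 0.68 (SE), with an adjusted p of 0.00611 by limma, and 4.27 without knockout saline replicate 1. In wild type the probe rose at 6 h by 3.29 ± 0.76 (SE), with an adjusted p of 0.00158 by limma, from 4 values of -5.21, -1.28, -0.88 and 0.16. In 3 of these samples it was above saline and in the first it was not. At 20 h the stem cell clone's probe differed from saline by 2.18 in wild type and by -1.54 in the knockout, which was not tested.

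The testis clone's probe lay between -2.96 and -1.49 in wild-type saline samples. At 6 h it was well above background on 0 of 4 wild-type arrays and was at least 5.65-fold lower, with an adjusted p of 0.000229 by limma. In the knockout it changed by -2.79 ± 0.73 (SE) at 6 h, with an adjusted p of 0.0467 by limma, and 1 of 4 arrays, replicate 1, measured it well above background. This knockout call did not hold with the replicate block (adjusted p = 0.124 by limma) or under most other alternatives, and was -4.26 (adjusted p = 2.62e-06 by limma) without the 2 libraries. At 20 h the testis clone's probe differed from saline by -2.27 in wild type and -2.01 in the knockout, which was not tested. It was then well above background on 5 of 6 wild-type and 1 of 6 knockout arrays. Main-probe levels at 6 h were 4.53, 4.54, 5.03 and 5.49 in wild type. A second probe named Hsd3b3, also for a cDNA clone, fell at 6 h in wild type by 2.15 on the log2 scale (adjusted p = 0.0185 by limma), but was not well above background on any of these 4 arrays, which leaves a bound of at least 1.05-fold.

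**Figure D3:**
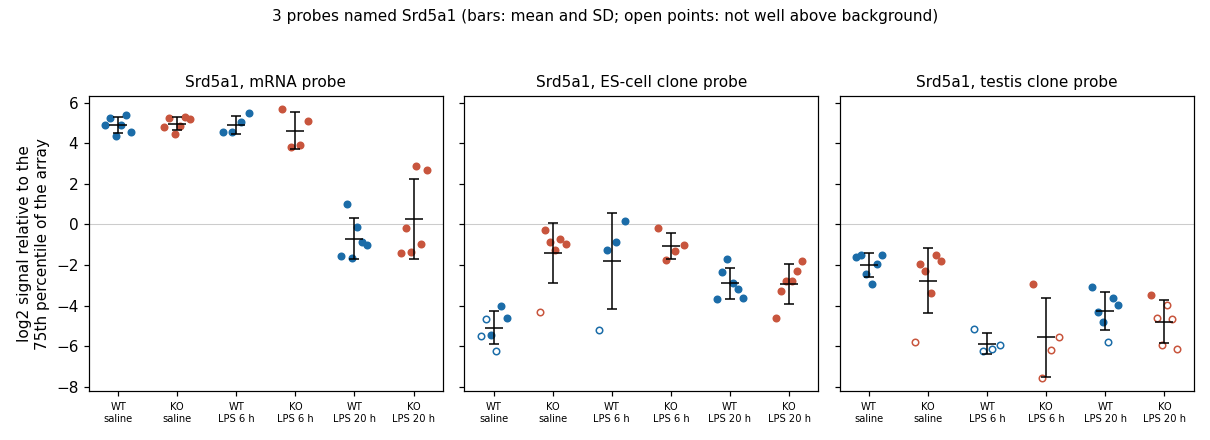
Log2 level relative to the 75th percentile of each array (vertical axis) for the 3 probes named Srd5a1 in the 6 groups, 1 point per array, open where not well above background, with the mean and SD. The main probe is low at 20 h alone, the testis clone's probe is already low at 6 h, and the stem cell clone's probe is higher in knockout than in wild-type saline samples.

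The Hsd3b genes lie side by side. On mm9, 9 probes of 6 Hsd3b genes span 353 kb of chromosome 3, all on the minus strand. The other 2 genes of the cluster were also lower at 20 h. Hsd3b6, a dehydrogenase of steroid-making and peripheral tissues, was not well above background on any wild-type array at 20 h and was at least 35.0-fold lower, with a fitted change of -6.73 (adjusted p = 6.68e-08 by limma). Its knockout change was -4.59 (adjusted p = 2.68e-05 by limma). Hsd3b1, the adrenal and gonadal isoform, fell by 4.34 (adjusted p = 1.57e-07 by limma) on the log2 scale in wild type and changed by -3.35 (adjusted p = 1.49e-05) in the knockout, and 2 of 6 wild-type arrays at 20 h measured it well above background.

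Some genes of other families within 500 kb of the cluster were looked at beside it. They are a part of the genes there, so they do not describe the whole window. Gja5, a gap junction protein, fell on 1 of its 2 probes by 1.16 in wild type on the log2 scale (adjusted p = 0.000315 by limma), and the other probe gave 0.93 (adjusted p = 0.308). Phgdh, the first enzyme of serine synthesis, rose on 3 probes by 2.43 to 2.74 in wild type (adjusted p from 1.93e-05 to 9.8e-05 by limma). Notch2, a receptor, Adam30 and Wars2, a mitochondrial tRNA synthetase, had no probe that passed in wild type at 20 h. In the knockout 1 of 3 Wars2 probes passed, at -1.2 (adjusted p = 0.0271 by limma).

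The Akr1c genes form a second cluster, with 10 probes of 7 genes over 496 kb of chromosome 13. Akr1c14, the mouse 3alpha-hydroxysteroid dehydrogenase, fell by 5.63 in wild type (adjusted p = 3.86e-08 by limma) and by 4.27 in the knockout (adjusted p = 5.21e-06) on the log2 scale. Akr1c19 fell by 3.14 on its brighter probe in wild type (adjusted p = 4.2e-08 by limma), and Akr1c12 by 1.37 and 1.87 on its 2 probes (adjusted p = 2.8e-06 and 4.38e-08). Akr1c21 fell by 1.06 in wild type (adjusted p = 0.00963 by limma) and did not pass in the knockout (-0.54). Akr1c18, which inactivates progesterone, was near background, at -0.84 (adjusted p = 0.418 by limma). No probe of the other Akr1c genes passed at 6 h in either genotype. At 20 h the decrease ran through most of this cluster, largest at Akr1c14, Akr1c6 and Akr1c20.

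**Figure D4:**
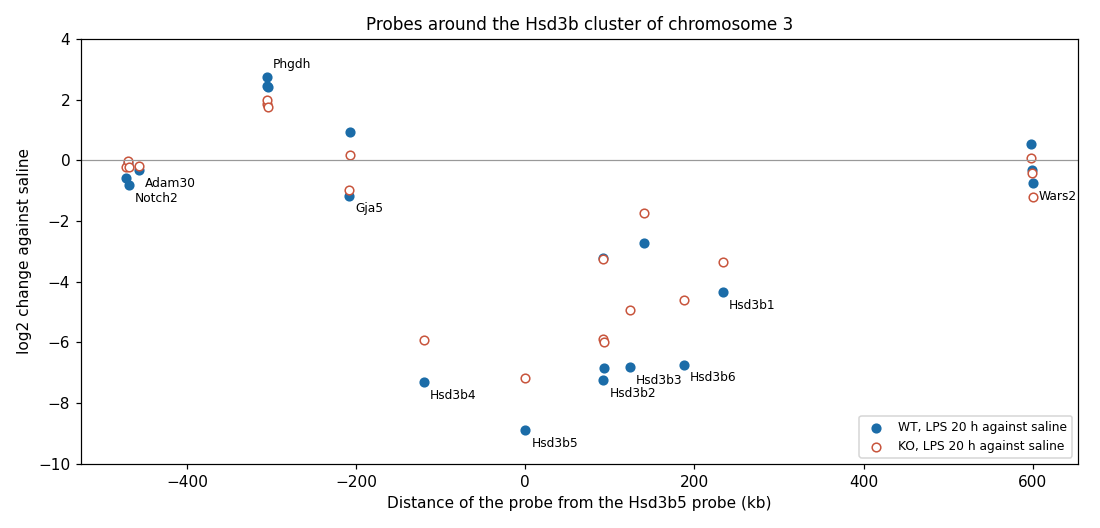
Log2 difference between 20 h of LPS and saline (vertical axis) for probes of the genes named here on chromosome 3, against the distance of each probe from the Hsd3b5 probe in kb (horizontal axis). Filled points are wild type and open points the knockout, 1 point per probe. Probes of the 6 Hsd3b genes lie below 0 in both genotypes and the 3 Phgdh probes above it.

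Since the Hsd3b genes moved together at 20 h, their promoter windows were compared. RefSeq's GRCm38.p6 table gave windows of 300 bases around the start, most of it upstream, for 7 of the 8 genes, 9 windows in all, with 2 windows each for Hsd3b3 and Hsd3b4 that share runs of 185 and 205 bases. Akr1c20 was not matched. Hsd3b5 and Hsd3b3 shared a run of 24 bases, in capitals below, and Hsd3b5 shared 19 bases with Hsd3b2.
Hsd3b5 promoter (chr3:98645485-98645784, minus strand): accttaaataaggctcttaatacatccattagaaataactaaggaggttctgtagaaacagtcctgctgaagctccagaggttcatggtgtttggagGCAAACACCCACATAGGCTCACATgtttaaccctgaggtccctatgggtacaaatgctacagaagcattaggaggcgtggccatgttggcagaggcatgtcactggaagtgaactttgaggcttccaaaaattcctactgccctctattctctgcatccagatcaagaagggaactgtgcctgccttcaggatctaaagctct
Hsd3b3 promoter (chr3:98763079-98763378, minus strand): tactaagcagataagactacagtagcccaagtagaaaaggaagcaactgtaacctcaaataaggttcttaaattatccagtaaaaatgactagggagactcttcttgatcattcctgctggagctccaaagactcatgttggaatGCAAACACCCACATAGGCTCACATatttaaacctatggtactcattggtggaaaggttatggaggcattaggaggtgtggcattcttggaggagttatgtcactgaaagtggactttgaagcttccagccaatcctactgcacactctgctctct

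Short motifs were searched on both strands of these 9 windows and of all 32851 windows in the table. The E2F forms TTTGGCGC and TTTCGCGC were in 0 of 9 windows and in 0.514% and 0.323% of all. The STAT5 form TTCNNNGAA was in 0 of 9 and in 8.3% of all. The HNF4 form CAAAGTCCA was in 2 of 9, both of them windows of Hsd3b3, and in 0.475% of all. The C/EBP form TTGCGCAA (0.183% of all), an NF-kB consensus (0.411%) and the palindromic glucocorticoid receptor consensus (0.00913%) were in 0 of 9. No form contains another. A match describes letters in these windows and shows no binding.

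Other enzymes of steroid metabolism were counted over lists that leave out the 8 genes. Beside them, 19.1% of all probes fell and 17.1% rose at 20 h in wild type, and 14.4% and 11.9% in the knockout. Counts without the 2 libraries stand beside 19% of all probes that fell and 16% that rose in the knockout in that fit. Of 3 further 3beta-hydroxysteroid dehydrogenases, 3 fell in wild type and 3 in the knockout. The third is Hsd3b7, which acts on bile acid precursors, and it fell by 2.07 (adjusted p = 7.76e-05 by limma) and already by 1.36 at 6 h (adjusted p = 0.0142) in wild type, on the log2 scale. Of 13 genes of the 17beta-hydroxysteroid dehydrogenase list, 10 fell and 0 rose in wild type, and 9 fell and 0 rose in the knockout. Hsd17b6, which oxidises androgens, changed by -4.09 (adjusted p = 3.5e-06 by limma) and Rdh7, a retinol dehydrogenase that also takes steroids, by -1.67 (adjusted p = 4.29e-05), whereas Hsd17b7, an enzyme of cholesterol synthesis, differed by -0.19.

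Of 9 further aldo-keto and steroid 5-reductases, 6 fell in wild type and 5 in the knockout, and 0 rose, apart from 1 in the knockout without the 2 libraries. Akr1d1, the 5-beta-reductase of bile acid synthesis, fell by 3.75 (adjusted p = 7.19e-05 by limma) on the log2 scale in wild type. Srd5a2, the second 5-alpha-reductase, fell by 2.64 (adjusted p = 0.00182 by limma). Srd5a3, which reduces polyprenol for protein glycosylation, differed by -0.29 (adjusted p = 0.303). Of 12 steroid hydroxylases of liver, 11 fell and 0 rose in wild type and 8 fell in the knockout, 10 without the 2 libraries. Cyp3a25 changed by -3.53 (adjusted p = 2.1e-06 by limma) and Cyp3a11 by -2.33 (adjusted p = 7.17e-05), both monooxygenases that hydroxylate steroids and drugs. Cyp8b1, the sterol 12-alpha-hydroxylase of bile acid synthesis, changed by -3.27 (adjusted p = 3.27e-05), and Cyp7b1, an oxysterol hydroxylase, by -0.59 (adjusted p = 0.256).

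Among 12 genes of steroid conjugation, 9 fell and 1 rose in wild type and 8 fell and 1 rose in the knockout. The one that rose was Sult1e1, the sulfotransferase that inactivates estrogen, at 7.41 ± 0.80 (SE, adjusted p = 1.29e-07 by limma) in wild type and 5.55 in the knockout. It had already risen at 6 h, by 2.58 (adjusted p = 0.03 by limma) in wild type and 3.35 (adjusted p = 0.047) in the knockout. The knockout value was 4.86 (adjusted p = 1.4e-05 by limma) without the 2 libraries, and the call was lost with slide as a block or with only the compared groups, where 0 probes passed. The glucuronosyltransferase genes Ugt2b1, Ugt2b35 and Ugt2b34 changed by -3.0, -2.82 and -2.8 in wild type (adjusted p = 4.74e-07, 4.82e-05 and 2.35e-05 by limma).

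**Figure D5:**
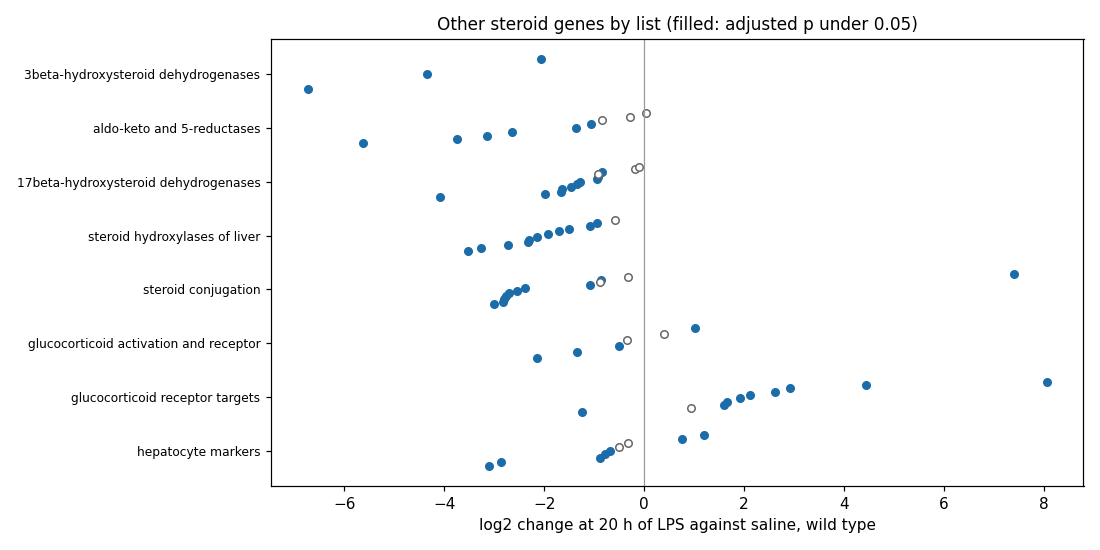
Log2 difference between 20 h of LPS and saline in wild type (horizontal axis) for genes outside the 8 in 8 lists (vertical axis), including glucocorticoid receptor targets and hepatocyte markers, 1 point per gene, filled where the adjusted p was under 0.05. Most points of the steroid enzyme lists lie below 0, apart from Sult1e1 at 7.41, and most receptor targets lie above it.

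Around Hsd11b1, of 6 genes of glucocorticoid activation and receptor function 3 fell and 1 rose in wild type, and 2 fell and 1 rose in the knockout, or 2 and 2 without the 2 libraries. Serpina6, the corticosteroid carrier of plasma, changed by -1.35 (adjusted p = 0.0314 by limma) and Nr3c1, the glucocorticoid receptor, by -0.50 (adjusted p = 0.0127). H6pd, which makes the cofactor for Hsd11b1, differed by 0.39 (adjusted p = 0.225). Of 10 genes known as glucocorticoid receptor targets, 8 rose and 1 fell in wild type and 6 rose and 1 fell in the knockout, where 9 rose and 1 fell without the 2 libraries. Lcn2, an iron-binding acute-phase protein, rose by 8.06 (adjusted p = 4.55e-06 by limma) and Mt2, a metallothionein, by 4.45 (adjusted p = 0.00218). Fkbp5, a receptor cochaperone, rose by 2.62 (adjusted p = 0.000397 by limma), while Tat, tyrosine aminotransferase, differed by 0.95 (adjusted p = 0.0777). Tsc22d3, another gene of this list, was lower at 6 h. Without the 2 libraries it changed by -2.47 in wild type (adjusted p = 5.12e-05 by limma) and by -1.85 in the knockout (adjusted p = 0.00461).

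Among genes known for sex-biased levels in mouse liver, 8 of 10 male-biased genes fell and 0 rose in wild type, and 6 fell in the knockout, 8 without the 2 libraries. Elovl3, a fatty acid elongase, changed by -3.08 (adjusted p = 0.00249 by limma) and Selenbp2 by -2.76 (adjusted p = 1.04e-05). Of 9 female-biased genes 3 fell and 1 rose in wild type, and 4 fell and 1 rose in the knockout. Cyp2a4, a steroid hydroxylase, changed by -2.82 (adjusted p = 0.000434 by limma). Of 20 regulators of growth hormone signalling and of hepatocyte transcription, 6 fell and 1 rose in wild type, and 2 fell and 0 rose in the knockout. Without the 2 libraries 4 fell and 3 rose in the knockout, beside 19% and 16% of all probes. Ghr, the growth hormone receptor, changed by -1.45 (adjusted p = 2.54e-05 by limma), Stat5b, which carries its signal, by -1.08 (adjusted p = 0.000528) and Cebpa, a hepatocyte transcription factor, by -1.80 (adjusted p = 5.59e-05).

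Markers of cell types were counted at 20 h in wild type. Of 9 hepatocyte markers 5 fell and 2 rose, with Ttr (-3.11) and Cps1 (-2.86) among the former, while Alb differed by -0.32 (adjusted p = 0.313 by limma). Of 8 neutrophil markers 7 rose and 0 fell, led by Ngp at 6.61. Of 8 Kupffer cell markers 6 fell and 1 rose, of 9 endothelial markers 4 fell and 2 rose, of 8 stellate cell markers 5 fell and 2 rose, and of 5 cholangiocyte markers 1 fell and 2 rose. Of 3 lung epithelium markers 2 rose, Sftpa1 by 4.52 and Sftpd by 3.08. Of 7 markers of steroid-making tissue 2 fell, Hsd3b1 and Fdx1, an electron carrier that is also present in liver, and 0 rose. The part of any of these in the levels of the 8 genes was not tested.

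Genes outside the 8 with profiles most like theirs were sought by the smallest root-mean-square difference of log2 levels over the 32 arrays, each gene centred on its wild-type saline mean, among 13682 probes without a missing value. For Hsd3b5 these were Keg1 (1.244), Hsd3b6 (1.554), Slc17a8 (1.729), Car5a (2.011), Notum (2.098) and Agxt2l1 (2.129). For Srd5a1 they were Slc2a2, the glucose transporter of hepatocytes (0.571), Abcb11, the bile salt export pump (0.737), and Akr1c14 (0.742). For Akr1c6 they were Klkb1, plasma prekallikrein (0.702), Sord, sorbitol dehydrogenase (0.707), and Prok1 (0.735). For Hsd11b1 they were Slc27a5 (0.187), Brp44l (0.218) and Idh3b (0.233). The arrays share their scan dates and the LPS response, so likeness here describes these 32 samples.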

How the data were processed

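RNA of 32 samples was measured on 1-colour Agilent arrays. Per the file headers, the intensity values (processed signal) were deposited by the authors after Feature Extraction 10.7.1.1 had subtracted a spatial background and detrended them. The authors also deposited a table of log2 values for 23916 probes, used as an alternative. Its columns correlated with their own arrays at 0.98 to 0.991, had medians from 8.8 to 8.91, and rose with a slope of 0.766 to 0.86 against the scanner values, so its exact scaling is unknown.

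Outlier spots (84 to 232 per array) were left out, spots of a probe averaged, and log2 signals taken relative to each array's 75th percentile (282.1 to 1137.9). A probe stayed in if at least 4 arrays flagged it well above background, a flag that 20203 to 28891 spots per array carried. The number of arrays limits the precision. With limma 3.58.1 (R 4.3.3), 6 group means were estimated from all 32 arrays, two-sided, with Benjamini-Hochberg adjustment over 28407 probes and a threshold of 0.05. A gene is represented by its brightest kept probe. The fit was tested on simulated data in which a probe had the same spread in every group. That test does not cover the unequal spreads seen here or libraries that go against their groups. The 8 genes, the lists and the tests were chosen with earlier results of these data known, and the list counts support nothing independently. Named genes were all probes of the 8, from each list up to 4 genes past the threshold that changed most and the brightest one not past it, some neighbours within 500 kb (1 result is not reported here), and the genes of most similar profile.

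Equal replicate numbers do not pair the samples: deviations of same-numbered arrays correlated at -0.665 to 0.359, median 0.0133, over 72 pairs. Alternatives were other scalings and filters, the deposited table, slide, scan date or replicate number as a block, left-out libraries and array weights.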

Additional observations from a re-analysis of the deposited data

Results flagged for a closer look

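Of 48 groups of values (8 genes in 6 groups), 6 held a sample far from the others, where chance alone gives about 1 in 20. They came from 3 libraries. The library labelled knockout LPS 6 h replicate 1 was highest of 4 for Hsd3b2 (4.9), Hsd3b4 (5.66) and Hsd3b5 (5.27). The library labelled knockout saline replicate 1 was lowest of 6 for Hsd3b5 (2.51). Both are the libraries whose scores went against their groups. Wild-type LPS 20 h replicate 4 was highest of 6 for Hsd3b4 (-0.25) and Hsd3b5 (-0.37).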

How the results depend on the processing

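The count of called genes among the 8 stayed at 0 in the comparisons of genotypes and of their responses under all alternatives run, except the genotype comparison at 20 h within scan date 1, which called 2 (Akr1c6 and Akr1c20). In wild type at 6 h the count was 2 with only the compared groups, with knockout LPS 20 h replicates 4 and 6 left out and with array weights (the latter pair of alternatives was chosen after seeing the data), and 0 to 1 with a replicate left out, the 1 being Hsd3b4 without knockout LPS 20 h replicate 4. In the knockout at 6 h it was 2 with array weights (Hsd3b4, adjusted p = 0.00182, and Hsd3b5, adjusted p = 0.000748, by limma). Scan date 1 held a single knockout array at 6 h, so its count is not given. The median difference of the 8 genes from saline at 20 h in wild type was -6.2, against -4.79 after normexp and -5.02 in the deposited table. Values that turned direction include the 20 h genotype differences of Hsd3b2 (-0.92), Hsd3b3 (-1.44), Hsd3b4 (-0.54), Srd5a1 (-0.23) and Hsd3b5 (-0.82) within scan date 1. That of Hsd3b5 was 1.21 as reported and -0.73 without knockout LPS 20 h replicates 4 and 6. Within scan date 3 the knockout differences at 6 h turned for Srd5a1 (0.83), Hsd3b2 (0.98), Hsd3b3 (0.2), Hsd3b4 (1.6), Hsd3b5 (0.97) and the Srd5a1 testis clone's probe (1.64). The stem cell clone's probe in the knockout at 6 h was 0.34 as reported and -0.24 to 0.57 with a replicate left out, the lowest without knockout saline replicate 1. It was -0.82 and -0.66 within scan dates 1 and 2, -0.53 without the 2 libraries and -0.24 with array weights. Its genotype difference on saline was 4.52 (adjusted p = 0.0874 by limma) within scan date 1. The median of Srd5a1, Akr1c6, Akr1c20 and Hsd11b1 at 6 h, besides the scalings, was -0.55 in wild type and -0.26 in the knockout with slide as a block, and 0.46 in wild type within scan date 1. The cause of these changes was not tested.

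The count over all probes in the knockout at 6 h was 632 as reported, 0 to 5603 with a replicate left out and 8145 without the 2 libraries. It was 362 after quantile normalization, 149 after normexp, 2 with no filter, 0 with slide as a block or with only the compared groups, and 11929 with array weights. For the genotype comparisons on saline, at 6 h and at 20 h, array weights gave 368, 1727 and 355 in place of 96, 303 and 85. With only the compared groups the counts at 6 h and 20 h were 11 and 30. The replicate block changed no call among the 8 genes (0 in each comparison), and gave 196 in place of 303 probes for genotype at 6 h, 10 in place of 32 for the difference in response at 6 h and 1 in place of 632 in the knockout at 6 h. The median of all probes at 6 h in wild type moved from 0.02 to -0.10 with quantile normalization, -0.13 with median centring and -0.12 in the deposited table. Probes near background limit what can be read of Hsd3b3, Hsd3b6 and the clone probes at 20 h.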
